A study of Homo sapiens with 12 samples.

Results

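Mitochondrial ribosomal protein genes were followed across 3 human cancer cell lines that carried a MYC vector or a control vector and were treated with tipifarnib or its solvent. The genes were chosen by name: every row whose Ensembl identifier maps to a protein-coding symbol of MRPL or MRPS followed by a number, without pseudogenes and without hyphenated readthrough or antisense names. Of 78 such symbols, 76 had a row among the 57820 gene rows of the count table (48 MRPL and 28 MRPS), and MRPS21 and MRPL45 had no matching row. The rule itself uses names and no measured value, but it was set with earlier results of these data known. Of the 76 genes, 75 passed the filter on low counts and were tested together with all other genes, 17096 in total, and MRPL30 was listed at 0 in all 12 libraries.

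These genes lie in the nuclear genome. Their proteins are made in the cytosol and imported into mitochondria. There they are, as a rule, assembled with RNAs encoded by mitochondrial DNA into the mitochondrial ribosome. This ribosome translates the mitochondrially encoded subunits of the respiratory chain and of ATP synthase. The large subunit joins amino acids and holds the exit tunnel, and the small subunit reads the mRNA. Some of the proteins belong to families shared with bacterial ribosomes, and others are found in mitochondrial ribosomes only. The symbols do not always give the subunit, since MRPS30 and MRPS18A are proteins of the large one. Counted this way, 50 of the 76 genes encode large subunit proteins (31 of bacterial families and 19 specific to mitochondria) and 24 encode small subunit proteins (15 and 9). MRPS28 and MRPS36 were left without a class and are included by symbol alone, whatever the place of their proteins. MYC, the transcription factor introduced here, binds DNA with its partner MAX at sites called E-boxes and is known to raise genes of ribosomes and mitochondria in many cell types.

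The lines were A549 from lung, SKOV3 from ovary and MDA-MB-231 from breast cancer. MYC cells carried the lentiviral vector pCDH-puro-cMyc and control cells the vector pCDH-CMV, both under puromycin selection. The 4 groups were MYC cells with tipifarnib, MYC cells with DMSO, control cells with tipifarnib and control cells with DMSO, each for 48 h, with 1 library per line and group. Tipifarnib inhibits farnesyltransferase, the enzyme that attaches a farnesyl lipid to RAS proteins, lamins and others, and its dose was 10 µM in A549 but 20 µM in both SKOV3 and MDA-MB-231. The replicates of a group are therefore 3 different lines, no culture was repeated, and a p-value here speaks only of the spread among these libraries. A line's label and its dose cannot be told apart for A549.

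Levels are CPM, counts scaled to a common library size,, and they compare libraries for 1 gene, not genes with each other, since no lengths were used. Gene counts were 20481363 to 26962994 per library, and the 76 genes together held 83053 to 143692 of them, or 0.376% to 0.552%. In A549, MYC itself had 506 and 912 CPM in MYC cells with tipifarnib and DMSO, against 144 and 105 CPM in control cells with tipifarnib and DMSO. In SKOV3 it had 610 and 494 CPM in MYC cells, against 99.7 and 48.4 CPM in control cells, in the same order of treatments. In MDA-MB-231 it had 1593 and 709 CPM in MYC cells, against 349 and 148 CPM in control cells. Every MYC library was above every control library of its line. The line labels were set against known marker genes: the A549 median was 954 CPM for ALDH3A1 and 1500 CPM for AKR1B10, the SKOV3 median 2710 CPM for ERBB2 and 248 CPM for PAX8, and the MDA-MB-231 median 1170 CPM for AXL and 123 CPM for ZEB1, each the highest of the 3 lines. Other markers went against the labels: SKOV3 had the highest median of AKR1C1 (408 CPM, against 218 CPM in A549), CAV1 (509 CPM, against 375 CPM in MDA-MB-231) and MSN (936 CPM, against 648 CPM in MDA-MB-231), and the ovarian marker KRT7 had 116 CPM in SKOV3 and 2090 CPM in A549. The lung markers SFTPB (median 0.045 CPM) and NKX2-1 (0.0457 CPM) were near 0 in A549, as were the ovarian markers WT1 (0.991 CPM) and MUC16 (0.403 CPM) in SKOV3.

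Because MYC acts through promoters, the DNA just upstream of the genes was read from the RefSeq promoter table on build GRCh38.p14, which gives 250 bases before and 50 bases after a gene's start. The counts were made on hg19, so no coordinate of the count table was used. A window was found for 67 of the 76 genes. The stretches of 250 bases before the start are printed 5′ to 3′ on the gene's strand for 6 genes whose changes are described further on, with the letters of an E-box (CACGTG) or of an ETS-type site (CCGGAAG, or CTTCCGG on the other strand) in capitals. MRPS2 and MRPL37 were chosen as holders of an E-box, MRPS26, MRPS34 and MRPL3 as holders of ETS-type letters, and MRPL4 as a gene with neither. MRPS2 and MRPL4 have 2 windows each, of which 1 is printed.
MRPS2, chr9:135499715-135499964 plus strand: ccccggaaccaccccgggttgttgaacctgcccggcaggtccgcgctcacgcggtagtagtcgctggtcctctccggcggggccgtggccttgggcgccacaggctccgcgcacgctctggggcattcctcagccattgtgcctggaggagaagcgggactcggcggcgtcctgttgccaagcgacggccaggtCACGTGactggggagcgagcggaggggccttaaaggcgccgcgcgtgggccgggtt
MRPL37, chr1:54199917-54200166 plus strand: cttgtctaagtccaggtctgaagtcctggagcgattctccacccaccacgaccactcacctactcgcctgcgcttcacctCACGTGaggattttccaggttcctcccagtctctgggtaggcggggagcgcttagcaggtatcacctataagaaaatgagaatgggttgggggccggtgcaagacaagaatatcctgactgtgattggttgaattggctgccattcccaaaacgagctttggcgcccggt
MRPS26, chr20:3045802-3046051 plus strand: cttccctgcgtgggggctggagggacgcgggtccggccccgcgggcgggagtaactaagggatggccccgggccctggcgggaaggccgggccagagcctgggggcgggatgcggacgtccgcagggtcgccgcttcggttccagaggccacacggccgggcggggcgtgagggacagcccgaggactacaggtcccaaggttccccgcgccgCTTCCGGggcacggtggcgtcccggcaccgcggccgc
MRPS34, chr16:1773135-1773384 minus strand: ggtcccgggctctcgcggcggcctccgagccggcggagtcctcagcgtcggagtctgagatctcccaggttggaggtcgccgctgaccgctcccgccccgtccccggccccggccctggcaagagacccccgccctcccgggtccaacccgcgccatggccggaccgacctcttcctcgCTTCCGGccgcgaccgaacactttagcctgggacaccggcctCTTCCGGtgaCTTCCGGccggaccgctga
MRPL3, chr3:131502972-131503221 minus strand: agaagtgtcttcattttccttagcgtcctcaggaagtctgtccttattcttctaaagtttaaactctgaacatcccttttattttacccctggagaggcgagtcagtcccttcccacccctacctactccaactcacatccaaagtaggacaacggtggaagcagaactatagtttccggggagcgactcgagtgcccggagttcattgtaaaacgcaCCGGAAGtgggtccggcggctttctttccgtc
MRPL4, chr19:10251701-10251950 plus strand: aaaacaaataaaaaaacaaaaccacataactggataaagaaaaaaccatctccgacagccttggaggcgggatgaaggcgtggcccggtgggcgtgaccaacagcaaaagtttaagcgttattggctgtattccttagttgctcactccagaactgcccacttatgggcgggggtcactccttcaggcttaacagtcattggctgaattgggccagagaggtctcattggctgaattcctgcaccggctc

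The E-box letters began 56 bases before the start in MRPS2 and 170 bases before it in MRPL37. The ETS-type letters began 37 bases before the start in MRPS26 and 32 bases before it in MRPL3, and MRPS34 held them at 71, 29 and 19 bases before its start. CACGTG, which reads the same on both strands, was present in the windows of 8 of 67 genes (11.9%), against 10.9% of 15843 coding genes. The ETS letters CCGGAAG on either strand were present in 29 genes (43.3%), against 16.5% of coding genes. The letters GATGGCG, from the motif of the factor YY1, were present on either strand in 16 genes (23.9%), against 6.92%, and GCATGCG, from the motif of the factor NRF1, in 7 genes (10.4%), against 6.07%. ETS and YY1 letters stood in 1 window in 4 genes and overlapped in 0 of them. A match of letters is a description of these windows and does not show binding. The coding genes were not limited to those tested here, so a higher share is not shown to be particular to these genes.

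With MYC, the mitochondrial ribosomal protein genes were mostly higher. Over both treatments and all 3 lines, 21 of 75 genes (28%) rose and 0 fell in edgeR's quasi-likelihood test at a Benjamini-Hochberg adjusted p below 0.05 over all genes tested, which is what "rose" and "fell" mean throughout. The same test called 4.50% of all genes higher and 2.84% lower. The log2 fold change of MYC cells over control cells was positive in 73 of the 75 genes, with a median of 0.29 and a range of -1.03 to 0.67, while the median of all genes was -0.00. In 46 of the 75 genes all 6 pairs (3 lines, 2 treatments) were higher in MYC cells, and in 0 were all 6 lower, where 12.1% and 10.8% of all genes did so. In a culture's bulk RNA, more RNA per cell and more cells expressing a gene cannot be told apart.

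The calls rest on all 3 lines and on comparing libraries within a line. None of the 75 genes passed when A549, SKOV3 or MDA-MB-231 was left out, when the line was not in the model, or when the 2 libraries of a line and vector were summed to 1. In those fits the median log2 fold change of the 75 genes stayed between 0.26 and 0.30, and at most 0.859% of all genes passed. The main fit counts the 2 pairs of a line as separate, although both share that line's own response.

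**Figure D1:**
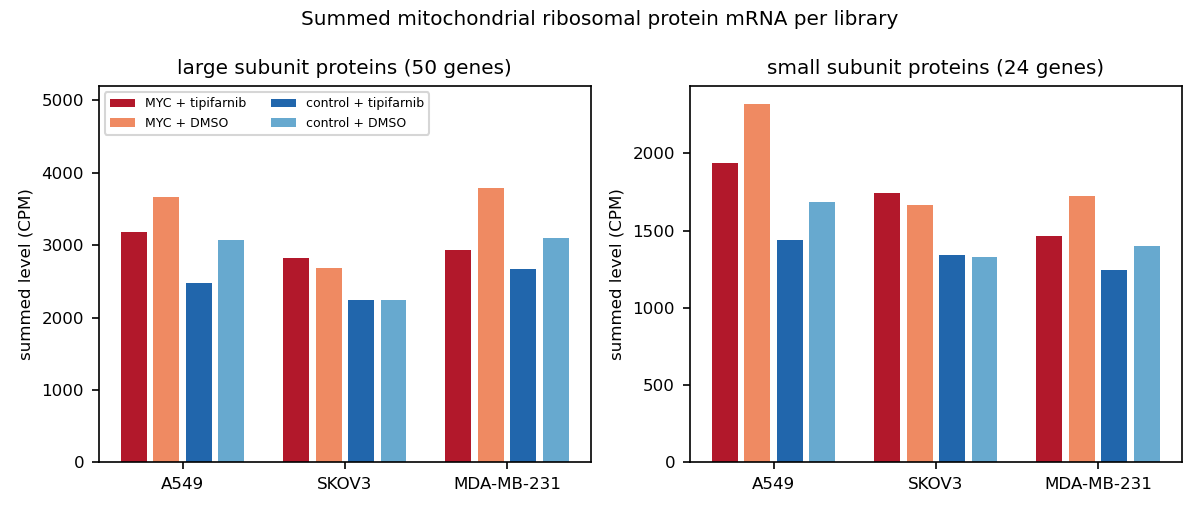
Summed level (CPM, vertical axis from 0) of the large subunit genes (left) and the small subunit genes (right) in each of the 12 libraries, 1 bar per library, grouped by line. Each MYC bar is above the control bar of the same line and treatment.

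The summed level shows the size of the change in each line. In A549 the 76 genes summed to 5180 and 6050 CPM in MYC cells with tipifarnib and DMSO, against 3961 and 4811 CPM in control cells with tipifarnib and DMSO. In SKOV3 the sums were 4616 and 4386 CPM in MYC cells and 3626 and 3605 CPM in control cells. In MDA-MB-231 they were 4463 and 5570 CPM in MYC cells and 3970 and 4544 CPM in control cells. The ratio of MYC to control cells in tipifarnib and in DMSO was 1.31 and 1.26 for A549, 1.27 and 1.22 for SKOV3, and 1.12 and 1.23 for MDA-MB-231. The plot of summed levels splits these by subunit. The large subunit genes of A549 summed to 3185 and 3672 CPM in MYC cells, against 2472 and 3073 CPM in control cells, and the small subunit genes to 1937 and 2320 CPM, against 1439 and 1686 CPM. All 6 MYC libraries exceeded their control partners for both subunits.

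Large subunit proteins of families shared with bacteria gave 8 of 30 genes that rose, with a median log2 fold change of 0.29. MRPL2, whose bacterial counterpart L2 sits near the site where peptide bonds form, had 40.8 and 45.0 CPM in A549 MYC cells with tipifarnib and DMSO, against 30.3 and 33.3 CPM in A549 control cells. In SKOV3 MRPL2 had 54.2 and 48.1 CPM in MYC cells and 40.1 and 34.3 CPM in control cells, and in MDA-MB-231 it had 82.9 and 78.8 CPM in MYC cells and 52.1 and 47.1 CPM in control cells. Within each line both MYC libraries were above both control libraries, and the fold change was 0.53 ± 0.09 (log2 ± SE, adjusted p = 0.0133). MRPL4, whose bacterial counterpart L4 lines the exit tunnel, had 40.5 and 42.4 CPM in A549 MYC cells, against 21.2 and 25.3 CPM in control cells. It had 36.1 and 36.4 CPM in SKOV3 MYC cells against 26.3 and 24.6 CPM, and 50.4 and 74.4 CPM in MDA-MB-231 MYC cells against 40.5 and 46.5 CPM in control cells. The groups of MRPL4 did not overlap within any line either, with a change of 0.62 ± 0.11 (adjusted p = 0.0152). MRPL34 (0.50 ± 0.10, adjusted p = 0.0238) and MRPL21 (0.47 ± 0.10, adjusted p = 0.0242) also rose, with all 6 pairs higher. MRPL3, related to a bacterial protein next to the peptide-bond site, rose by 0.47 ± 0.10 (adjusted p = 0.0242); its MDA-MB-231 libraries overlapped, at 153 and 204 CPM in MYC cells with tipifarnib and DMSO against 123 and 165 CPM in control cells. MRPL10 and MRPL11, parts of the stalk and stalk base where translation factors dock, and MRPL16 rose as well, by 0.30 to 0.36.

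Among large subunit proteins specific to mitochondria, 3 of 19 rose, with a median of 0.30. MRPS30, a large subunit protein despite its name, showed the highest fold change of the 75 genes, 0.67 ± 0.12 (adjusted p = 0.0178). In A549 it had 75.4 and 110.9 CPM in MYC cells with tipifarnib and DMSO, against 45.7 and 47.9 CPM in control cells. In SKOV3 it had 56.0 and 47.0 CPM against 37.7 and 34.2 CPM, and in MDA-MB-231 98.3 and 101.5 CPM against 70.5 and 71.8 CPM, MYC cells first in both. No MYC library of MRPS30 overlapped with a control library of its line. MRPL42 (0.41 ± 0.09, adjusted p = 0.0267) and MRPL50 (0.40 ± 0.11, adjusted p = 0.0491) were the others that rose.

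**Figure D2:**
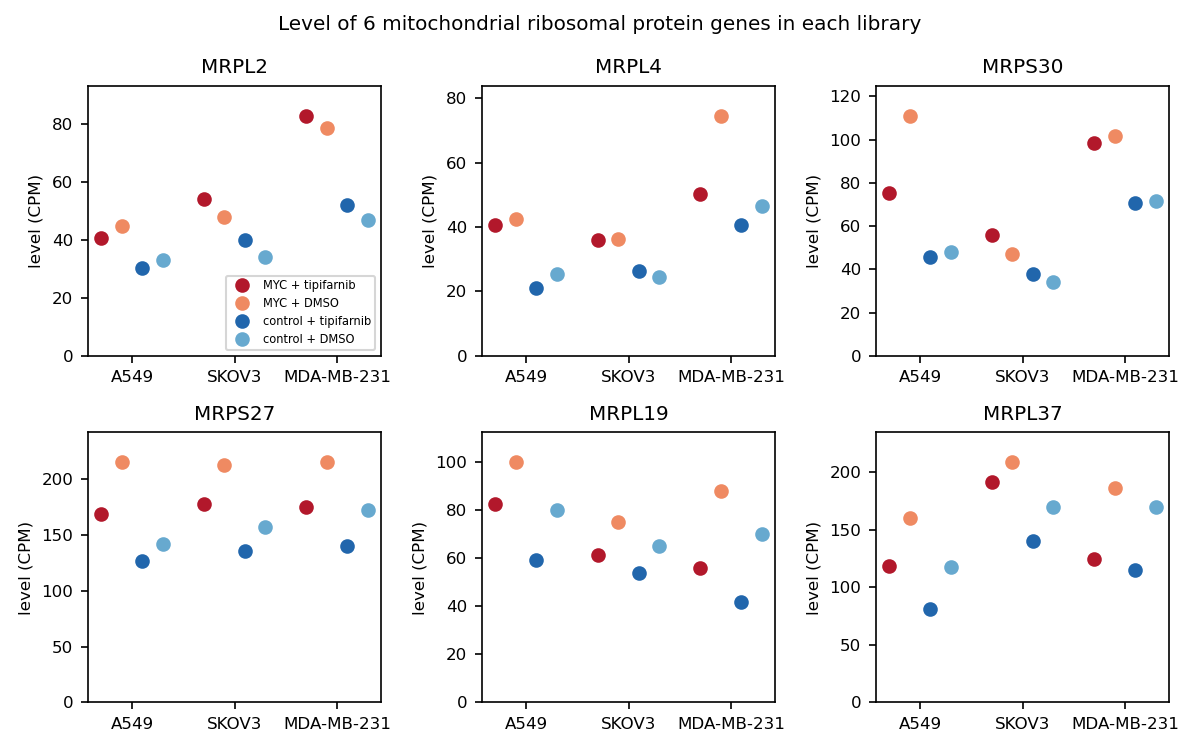
Level (CPM, vertical axes from 0) of 6 genes in each library, 1 point per library, grouped by line and coloured by vector and treatment. MRPL2, MRPL4, MRPS30 and MRPS27 have both MYC points above both control points in each line, and MRPL19 and MRPL37 have each tipifarnib point below the DMSO point of the same vector and line.

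Small subunit genes rose in 10 of 24 cases, with a median of 0.34: 5 of 15 of bacterial families (median 0.22) and 5 of 9 specific to mitochondria (median 0.41). MRPS27, a protein with pentatricopeptide repeats, a fold that binds RNA, changed by 0.41 ± 0.07 (adjusted p = 0.0146). It had 168 and 215 CPM in A549 MYC cells with tipifarnib and DMSO, against 126 and 142 CPM in control cells. In SKOV3 it had 178 and 212 CPM in MYC cells and 136 and 157 CPM in control cells, and in MDA-MB-231 175 and 215 CPM in MYC cells and 140 and 173 CPM in control cells. Both MYC libraries were above both control libraries in each line. MRPS26 had 112 and 131 CPM in A549 MYC cells against 80.5 and 88.8 CPM, 66.2 and 68.9 CPM in SKOV3 MYC cells against 54.7 and 57.3 CPM, and 61.5 and 78.5 CPM in MDA-MB-231 MYC cells against 43.6 and 42.6 CPM in control cells. Its change was 0.49 ± 0.09 (adjusted p = 0.0167), again without overlap within a line. MRPS9 (0.48 ± 0.09, adjusted p = 0.0192), MRPS35 (0.48 ± 0.09, adjusted p = 0.0207) and MRPS5 (0.43 ± 0.08, adjusted p = 0.021) were also among the 12 genes with the smallest p. In bacteria the counterpart of MRPS9 contacts the tRNA that carries the growing chain, and that of MRPS5 bears on the accuracy of reading. MRPS34, needed for a stable small subunit RNA, rose by 0.53 ± 0.12 (adjusted p = 0.0331), and MRPS2 by 0.59 ± 0.14 (adjusted p = 0.0326). MRPS12, related to the bacterial protein of the decoding centre, and MRPS31 also rose.

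The MRPS18 paralogs descend from 1 bacterial protein and take different places, MRPS18A in the large and MRPS18B and MRPS18C in the small subunit. MRPS18B rose by 0.45 ± 0.11 (adjusted p = 0.0331), with 79.9 and 106.7 CPM in A549 MYC cells against 57.6 and 68.6 CPM, 93.2 and 82.9 CPM in SKOV3 MYC cells against 64.9 and 55.6 CPM, and 75.3 and 76.9 CPM in MDA-MB-231 MYC cells against 63.4 and 65.4 CPM in control cells. MRPS18A (0.15 ± 0.13, adjusted p = 0.521) and MRPS18C (0.11 ± 0.15, adjusted p = 0.725) did not pass, and the difference between paralogs was not tested. Exons of another gene on the opposite strand overlap 47% of MRPS18A (RSPH9) and 40.2% of MRPS18C (ABRAXAS1) in GENCODE 29, and whether strand was used in counting is not given in the sources used here. The same holds for genes that rose: exons on the opposite strand overlap 21.4% of MRPL4, 16.3% of MRPS12 (SARS2), 14.7% of MRPL2 (KLC4), 14.4% of MRPS2 and 13.2% of MRPL34 (ABHD8), and for MRPS7, which fell with tipifarnib, 10.8%. The part of these overlaps in the changes was not tested.

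The gene nearest to the threshold among those that did not pass was MRPL9 (0.31 ± 0.09, adjusted p = 0.055). The 2 genes with a negative change were few in reads. MRPS24 had 0.046 and 0.042 CPM in A549 MYC cells against 0.14 and 0.13 CPM, 0.45 and 0.37 CPM in SKOV3 MYC cells against 0.54 and 0.30 CPM, and 0.47 and 0.47 CPM in MDA-MB-231 MYC cells against 2.29 and 1.10 CPM in control cells. Its change of -1.03 ± 0.42 did not pass (adjusted p = 0.161). MRPL53 was at 0.97 to 2.58 CPM in all libraries, with a change of -0.30 ± 0.25 (adjusted p = 0.496). Exons of a same-strand gene overlap 23.2% of MRPS24 (the readthrough gene URGCP-MRPS24) and 45.2% of MRPL53 (CCDC142), and reads that fit several genes, 9.22% to 10.6% of all counts, were not assigned to a gene in the deposited table. Their part in these low levels was not tested.

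The calls were also counted by the letters in the promoter windows. Of the 8 genes that hold CACGTG, 1 rose (MRPS2), against 17 of 58 tested genes with a window but without it. MRPL14 (0.35 ± 0.11, adjusted p = 0.0829), MRPL36 (0.35 ± 0.12, adjusted p = 0.108), MRPL37 (0.33 ± 0.10, adjusted p = 0.0662), MRPS33 (0.24 ± 0.08, adjusted p = 0.0926) and MRPL22 (0.18 ± 0.08, adjusted p = 0.23) were higher in 6 of 6 pairs without passing. MRPS18C and MRPL49 (0.03 ± 0.09, adjusted p = 0.864) were the remaining holders, higher in 4 of 6 pairs each. The ETS letters were held by 28 tested genes, of which 6 rose, against 12 of 38 without them, the YY1 letters by 16 genes, of which 5 rose, against 13 of 50, and the NRF1 letters by 7 genes, of which 1 rose, against 17 of 59. These counts were not tested.

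Levels with tipifarnib were mostly lower in A549 and MDA-MB-231 but not in SKOV3, where 44 of 75 genes in MYC cells and 42 in control cells were higher with tipifarnib. Over both vectors and all 3 lines, 9 of 75 genes (12%) fell and 0 rose, against 6.63% of all genes that fell and 4.66% that rose. The log2 fold change of tipifarnib over DMSO was negative in 60 of the 75 genes, with a median of -0.14, and the median of all genes was 0.00. In 16 genes all 6 pairs were lower in tipifarnib and in 0 all were higher, where 12.3% and 8.49% of all genes did so. Of the genes that fell, 7 of 49 were of the large subunit and 2 of 24 of the small one. No gene passed without A549 or without MDA-MB-231, and 3 passed without SKOV3. None passed without the line in the model or with counts summed per line, and 2 passed without the filter on low counts. The share of all genes called in these fits is not given here, so the counts show only how the calls depend on the fit.

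MRPL19, whose bacterial counterpart lies at the interface of the subunits, fell by 0.44 on the log2 scale (SE 0.09, adjusted p = 0.015). It had 82.3 and 59.4 CPM in A549 cells with tipifarnib, MYC then control vector, against 99.7 and 79.9 CPM with DMSO. In SKOV3 it had 61.2 and 53.8 CPM with tipifarnib and 75.2 and 65.2 CPM with DMSO, and in MDA-MB-231 55.8 and 41.8 CPM with tipifarnib and 87.8 and 70.2 CPM with DMSO. The treatments did not overlap in SKOV3 and MDA-MB-231, and overlapped in A549 across the 2 vectors. MRPL37, a large subunit protein specific to mitochondria, had 119 and 81.2 CPM in A549 cells with tipifarnib against 160 and 118 CPM with DMSO. It had 192 and 141 CPM in SKOV3 with tipifarnib against 209 and 170 CPM, and 124 and 115 CPM in MDA-MB-231 with tipifarnib against 187 and 170 CPM with DMSO. Its change was -0.42 ± 0.10 (adjusted p = 0.0239). MRPL27 (-0.38 ± 0.09, adjusted p = 0.031), whose bacterial counterpart reaches toward the peptide-bond site, was lower with tipifarnib than with DMSO across both vectors in each of the 3 lines. In A549 MRPL27 had 64.7 and 43.5 CPM with tipifarnib against 75.6 and 66.2 CPM, in SKOV3 42.5 and 33.8 CPM against 49.3 and 45.9 CPM, and in MDA-MB-231 35.7 and 38.8 CPM against 53.1 and 45.7 CPM with DMSO. MRPL57 (-0.38 ± 0.10, adjusted p = 0.0339), MRPL35 (-0.35 ± 0.09, adjusted p = 0.0393), MRPL11 (-0.29 ± 0.08, adjusted p = 0.0407), MRPS27 (-0.26 ± 0.07, adjusted p = 0.0409), MRPS7 (-0.34 ± 0.09, adjusted p = 0.0436) and MRPL42 (-0.32 ± 0.09, adjusted p = 0.0442) fell too. MRPS7 belongs to the head of the small subunit. MRPL50 was just outside, at -0.36 ± 0.11 (adjusted p = 0.0525).

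**Figure D3:**
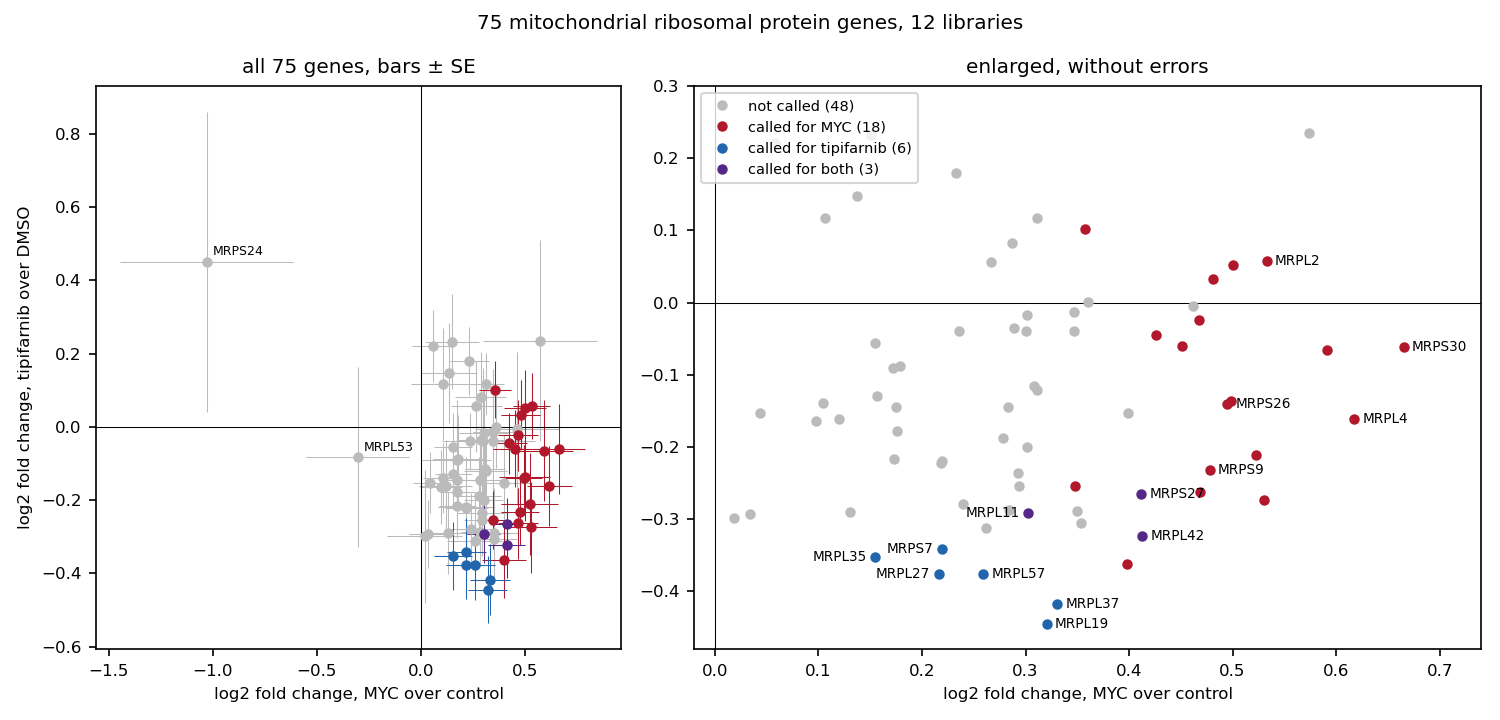
Log2 fold change of MYC over control (horizontal axis) against that of tipifarnib over DMSO (vertical axis) for the 75 tested genes, 1 point per gene, with standard errors on the left and the crowded part enlarged on the right. 73 points lie right of 0 for MYC and 60 below 0 for tipifarnib, and MRPS24 is the point far left at -1.03.

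Both comparisons use the same 12 libraries. MRPL11 changed by 0.30 ± 0.08 with MYC (adjusted p = 0.0463) and by -0.29 ± 0.08 with tipifarnib, MRPL42 by 0.41 ± 0.09 and -0.32 ± 0.09, and MRPS27 by 0.41 ± 0.07 and -0.26 ± 0.07. These 3 genes passed in both, in opposite directions. Of all genes 4.50% rose with MYC and 6.63% fell with tipifarnib, and the share that did both was not counted. MRPS30 (-0.06 ± 0.12, adjusted p = 0.791) and MRPL2 (0.06 ± 0.09, adjusted p = 0.727) did not pass with tipifarnib, and MRPL4 (-0.16 ± 0.11, adjusted p = 0.374) and MRPS26 (-0.14 ± 0.09, adjusted p = 0.351) did not either.

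Whether MYC changed the response to tipifarnib was asked by the interaction of the 2. It was called in 0 of 75 genes and in 0% of all genes by edgeR, and by DESeq2 and limma-voom in 0 of the 75. At an unadjusted p under 0.05 there were 0 of the 75 genes and 125 of all 17096. In simulated counts this test found 19% of 2-fold and 69% of 4-fold interactions. The absence of calls therefore does not show that MYC and control cells responded alike. The smallest p among the 75 genes belonged to MRPS6 (0.24 ± 0.20), MRPL34 (-0.21 ± 0.21), MRPL20 (0.27 ± 0.27) and MRPL46 (-0.40 ± 0.40), each with an adjusted p of 1 and a standard error about as large as the value. The ratio of summed levels in tipifarnib over DMSO was 0.856 in MYC cells and 0.823 in control cells of A549, 1.05 and 1.01 for SKOV3, and 0.801 and 0.874 for MDA-MB-231.

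Within single lines, each line's own effect was fitted with the interaction of MYC and tipifarnib as the error. In A549, 26 of 75 genes rose with MYC and 0 fell (9.94% and 7.80% of all genes), with a median of 0.35. The smallest p were those of MRPS30 (0.97 ± 0.13, adjusted p = 0.00154), MRPS34 (0.79 ± 0.11, adjusted p = 0.00183) and MRPL4 (0.84 ± 0.14, adjusted p = 0.00317). MRPS34 had 192 and 253 CPM in A549 MYC cells with tipifarnib and DMSO, against 113 and 143 CPM in control cells. In SKOV3, 17 genes rose and 0 fell (4.58% and 4.50% of all genes), with a median of 0.30. There MRPL24, whose bacterial counterpart starts the assembly of the large subunit, had 115 and 86.9 CPM in MYC cells against 78.2 and 57.9 CPM in control cells (0.57 ± 0.11, adjusted p = 0.0128). MRPL50 (0.69 ± 0.13, adjusted p = 0.0133) and MRPS18B (0.55 ± 0.11, adjusted p = 0.0152) followed. In MDA-MB-231, 2 genes rose and 0 fell (0.813% and 0.831% of all genes), MRPL2 (0.71 ± 0.11, adjusted p = 0.0212) and MRPS26 (0.69 ± 0.12, adjusted p = 0.0321). MRPL34 (0.64 ± 0.15, adjusted p = 0.0657) and MRPL21 (0.44 ± 0.11, adjusted p = 0.0741) had the next smallest p and did not pass. With DESeq2 both of these passed, and the count was 7 with DESeq2 and 7 without the filter on low counts. The median there was 0.24, and 69 of the 75 values were positive, as were 66 in A549 and 71 in SKOV3. MRPL2 rose in all 3 lines, 11 genes rose in 2 lines, 20 in 1 line and 43 in none. The same count was not made over all genes, so only the shares per line give its scale.

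A difference of the MYC effect between lines was called in 0 of the 75 genes by edgeR, and in 0 by DESeq2 and by limma-voom, against 3.07% of all genes by edgeR. At an unadjusted p under 0.05 there were 3. The smallest adjusted p were 0.21 for MRPL24, 0.243 for MRPL15, 0.276 for MRPS34 and 0.313 for MRPS30. In simulated counts with a change in SKOV3 alone, this test found 53% of 2-fold changes, so smaller differences can be missed. Whether the lines differed in a gene is settled neither by this test nor by the line in which the gene passed.

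**Figure D4:**
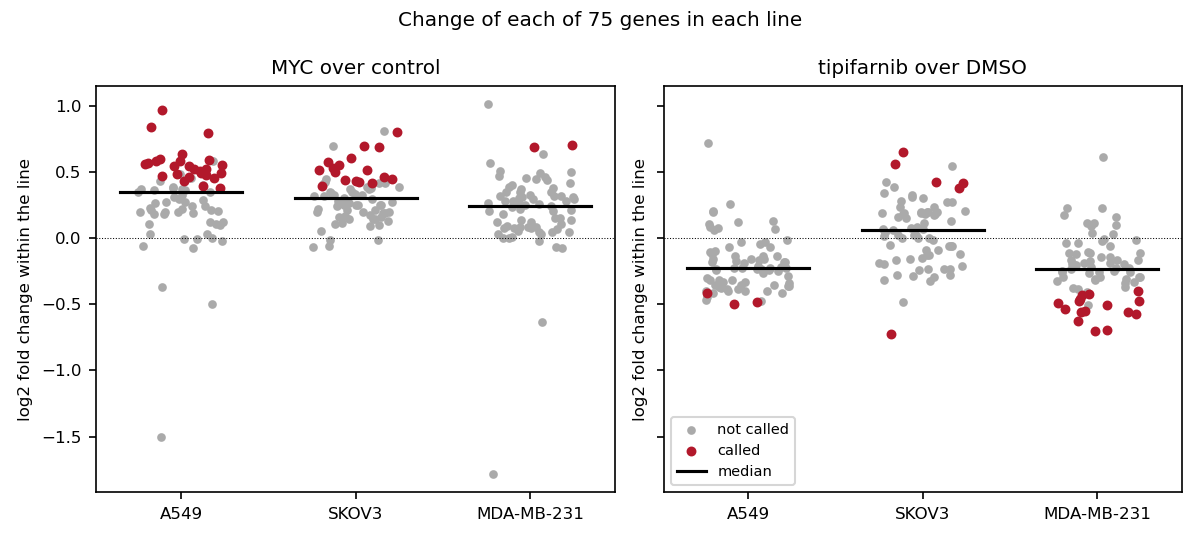
Log2 fold change within each line (vertical axis) of MYC over control (left) and tipifarnib over DMSO (right), 1 point per gene, with genes that passed the test in red and the median as a bar. The medians are 0.35, 0.30 and 0.24 for MYC in A549, SKOV3 and MDA-MB-231, and -0.23, 0.06 and -0.24 for tipifarnib.

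With tipifarnib the lines gave different counts. In MDA-MB-231, 16 genes fell and 0 rose (12.1% and 10.6% of all genes), with a median of -0.24 and 64 of 75 values negative. MRPL19 (-0.70 ± 0.11, adjusted p = 0.00239), MRPL35 (-0.63 ± 0.11, adjusted p = 0.00364) and MRPL37 (-0.57 ± 0.11, adjusted p = 0.0056) led. MRPL35, a protein of a bacterial family, had 82.3 and 80.7 CPM with tipifarnib in MYC and control cells of MDA-MB-231, against 132 and 120 CPM with DMSO. In A549, 3 fell and 0 rose (4.47% and 3.56% of all genes), with a median of -0.23 and again 64 negative values. They were MRPL37 (-0.49 ± 0.11, adjusted p = 0.0287), MRPL57 (-0.50 ± 0.13, adjusted p = 0.0462) and MRPS23 (-0.42 ± 0.11, adjusted p = 0.0483). MRPL42 (-0.40 ± 0.11, adjusted p = 0.0552) was just outside. With DESeq2 size factors 1 gene passed, and 5 passed with DESeq2 or limma-voom. In SKOV3, 5 rose and 1 fell (6.57% and 7.48% of all genes), the median was 0.06 and 45 values were positive. MRPL52, specific to mitochondria, had 81.8 and 55.9 CPM with tipifarnib in MYC and control cells of SKOV3, against 50.4 and 42.1 CPM with DMSO (0.56 ± 0.13, adjusted p = 0.0204). MRPL24 (0.42 ± 0.11, adjusted p = 0.0303), MRPL41 (0.65 ± 0.18, adjusted p = 0.0358), MRPS15 (0.38 ± 0.10, adjusted p = 0.0393) and MRPL15 (0.41 ± 0.12, adjusted p = 0.0439) rose as well. MRPL33 fell there, with 52.7 and 56.1 CPM against 95.5 and 84.0 CPM (-0.72 ± 0.18, adjusted p = 0.0293); exons of another gene on the same strand overlap 21.1% of it.

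The tipifarnib effect itself differed between lines in 3 of 75 genes, against 7.69% of all genes. MRPL41 (adjusted p = 0.0421) changed by -0.39 ± 0.17 in A549, with 0.65 ± 0.18 for SKOV3 and -0.37 ± 0.17 for MDA-MB-231. MRPS12 (adjusted p = 0.0467) changed by -0.36 ± 0.13, 0.28 ± 0.13 and -0.56 ± 0.13 in the same order of lines, and MRPL17 (adjusted p = 0.0497) by -0.28 ± 0.12, 0.27 ± 0.12 and -0.47 ± 0.12. All 3 were positive in SKOV3 and negative in the other lines. SKOV3 and MDA-MB-231 received the same dose, and A549 a lower one. MRPS15 had the next smallest p (adjusted p = 0.0553). With DESeq2 10 genes passed and without the filter on low counts 11, against 12.1% and 9.65% of all genes.

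**Figure D5:**
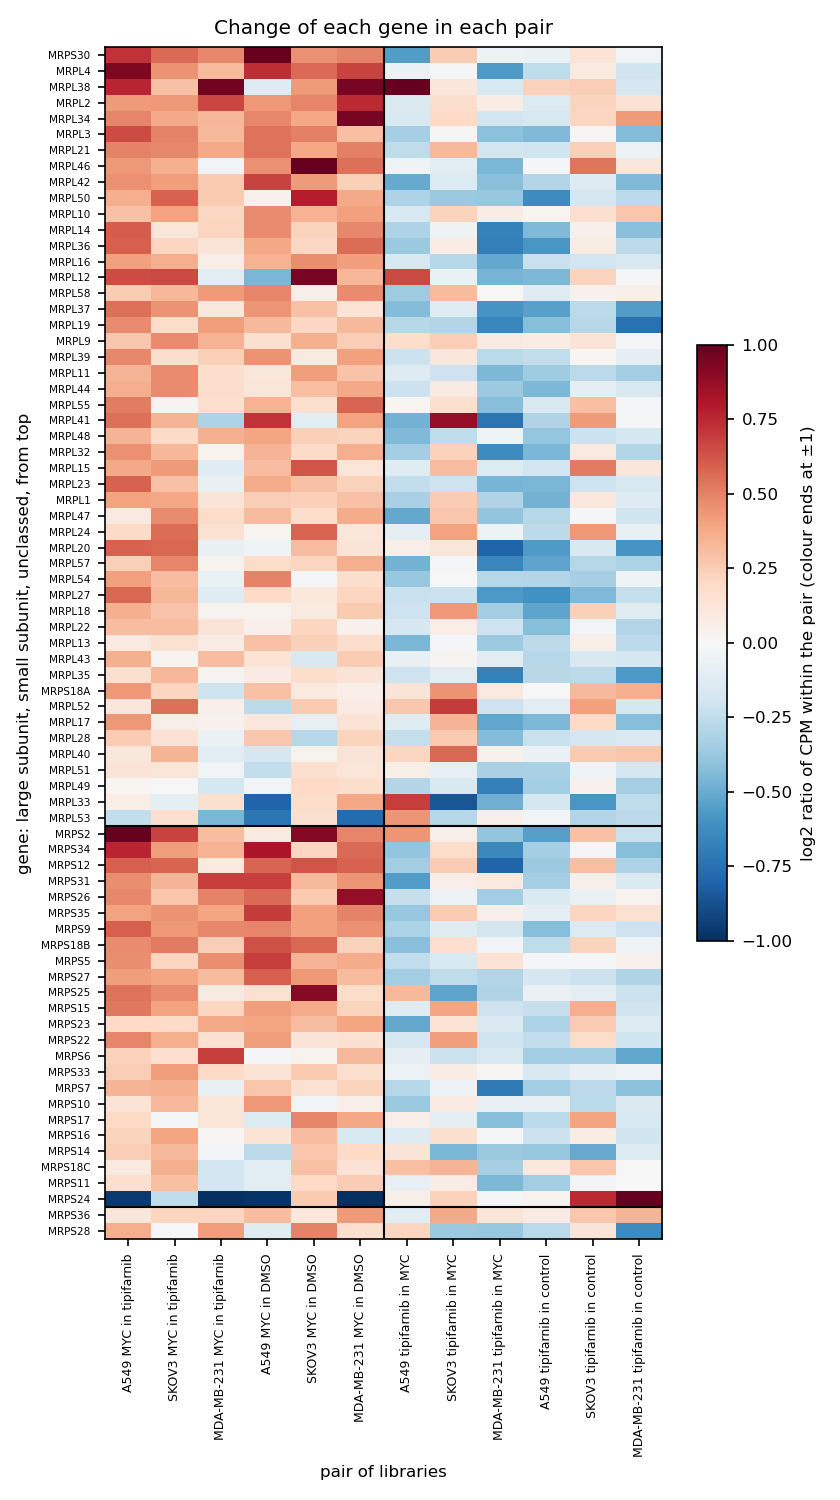
Log2 ratio of CPM within each of the 12 pairs of libraries (columns: MYC over control left of the black line, tipifarnib over DMSO right of it) for the 75 tested genes (rows), with red for higher and blue for lower and colour ending at ±1. Rows run from large subunit over small subunit to unclassed genes, each sorted by the MYC change, and the MYC columns are mostly red apart from MRPS24 and MRPL53 at the foot of their blocks.

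Pair by pair, the plot of log2 ratios shows how many of the 75 genes moved. MYC cells were higher in 73 genes in tipifarnib and 59 in DMSO of A549, in 71 and 69 of SKOV3, and in 56 and 72 of MDA-MB-231. Tipifarnib libraries were higher than DMSO libraries in 18 genes in MYC cells and 6 in control cells of A549, in 44 and 42 of SKOV3, and in 12 and 14 of MDA-MB-231. Among all genes, between 46.7% and 50.3% were higher in each of these 12 pairs. After centring each gene on its line, the median Pearson correlation of a gene with the mean of the others over the 12 libraries was 0.797, from -0.627 (MRPS24) to 0.977 (MRPL3), and 65 of the 75 exceeded 0.5. MRPL53 (-0.492), MRPL33 (-0.037) and MRPL40 (0.123) were low among them, and MYC itself had 0.694. The libraries share line, vector and treatment, so these are descriptions.

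Levels also differed between the lines, as for most genes. A549 exceeded SKOV3 in 35 of the 75 genes and was below it in 10 (29.6% and 28.5% of all genes). MRPL51 (1.30 ± 0.10, adjusted p = 5.15e-06), MRPS33 (1.16 ± 0.10, adjusted p = 6.39e-06) and MRPS11 (1.27 ± 0.12, adjusted p = 1.43e-05) led among the higher ones, and MRPS6 (-1.73 ± 0.12, adjusted p = 2.87e-06), MRPS15 (-1.08 ± 0.14, adjusted p = 9.87e-05) and MRPS10 (-0.54 ± 0.10, adjusted p = 0.00118) among the lower. MRPS6 had 14.01 to 17.86 CPM in the 4 A549 libraries, 46.48 to 60.57 CPM in SKOV3 and 16.1 to 28.99 CPM in MDA-MB-231, so A549 and MDA-MB-231 overlapped and SKOV3 stood above both. A549 exceeded MDA-MB-231 in 23 genes and was below it in 19 (30.4% and 26.9% of all genes), with MRPS35 (1.20 ± 0.12, adjusted p = 1.71e-05), MRPS33 (0.94 ± 0.09, adjusted p = 2.13e-05) and MRPS26 (0.89 ± 0.11, adjusted p = 8.72e-05) higher and MRPS10 (-1.01 ± 0.10, adjusted p = 2.2e-05), MRPL47 (-1.25 ± 0.13, adjusted p = 2.9e-05) and MRPL1 (-1.18 ± 0.13, adjusted p = 4.49e-05) lower. SKOV3 exceeded MDA-MB-231 in 12 genes and was below it in 33 (32.3% and 29.3% of all genes). MRPS6 (1.23 ± 0.12, adjusted p = 1.65e-05), MRPS15 (1.13 ± 0.14, adjusted p = 6.35e-05) and MRPS35 (0.65 ± 0.12, adjusted p = 0.000753) were higher there, and MRPL22 (-0.92 ± 0.10, adjusted p = 3.69e-05) and MRPS25 (-1.44 ± 0.16, adjusted p = 3.8e-05) lower. MRPL32, which a protease of the inner membrane trims after import, was lower in SKOV3 by the widest margin of these, with 26.8 to 35.9 CPM against 82.4 to 130 CPM in MDA-MB-231 (-1.68 ± 0.15, adjusted p = 7.16e-06). The 4 libraries of a line differ in vector and treatment and are not repeats of 1 condition.

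Other genes of mitochondrial translation were counted from lists of known function, and the share of all genes called gives the scale: 4.50% higher with MYC and 6.63% lower with tipifarnib. Of the 5 mitochondrial ribosome proteins with other names, 2 rose with MYC, DAP3 (0.39 ± 0.08, adjusted p = 0.0233), a GTP-binding protein of the small subunit, and PTCD3 (0.52 ± 0.08, adjusted p = 0.0117), which sits where mRNA enters. PTCD3 also fell with tipifarnib (-0.35 ± 0.08, adjusted p = 0.0257), 1 of 5. Translation factors rose with MYC in 6 of 17 cases, with a median of 0.37. Among them were the elongation factor TUFM (0.55 ± 0.08, adjusted p = 0.0108) and the mitochondrial mRNA-binding partners LRPPRC (0.61 ± 0.10, adjusted p = 0.0141) and SLIRP (0.55 ± 0.12, adjusted p = 0.0264). With tipifarnib 1 of 17 fell, the ribosome recycling factor MRRF (-0.38 ± 0.10, adjusted p = 0.0393). The mitochondrial aminoacyl-tRNA synthetases, which load tRNAs, rose with MYC in 5 of 20 cases, among them YARS2 (0.44 ± 0.09, adjusted p = 0.0242), MARS2 (0.75 ± 0.17, adjusted p = 0.0303) and TARS2 (0.36 ± 0.09, adjusted p = 0.0412). With tipifarnib 6 of 20 fell, led by AARS2 (-0.55 ± 0.11, adjusted p = 0.014), WARS2 (-0.55 ± 0.12, adjusted p = 0.0209) and LARS2 (-0.49 ± 0.13, adjusted p = 0.036).

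Factors that assemble the mitochondrial ribosome or modify its RNA rose with MYC in 5 of 24 cases, with a median of 0.31. C1QBP, a matrix protein with an RNA-binding role in ribosome formation, had 474 and 688 CPM in A549 MYC cells with tipifarnib and DMSO, against 273 and 419 CPM in control cells. In SKOV3 it had 127 and 127 CPM against 66.3 and 69.2 CPM, and in MDA-MB-231 311 and 520 CPM against 209 and 325 CPM, MYC cells first. It rose by 0.76 ± 0.12 with MYC (adjusted p = 0.0109) and fell with tipifarnib (-0.43 ± 0.12, adjusted p = 0.0445) over all lines. Its tipifarnib effect differed between lines in edgeR's test (adjusted p = 0.0475), and in SKOV3 tipifarnib and DMSO levels were nearly equal. The GTPase NOA1 (0.52 ± 0.09, adjusted p = 0.0141) and the pseudouridine synthase RPUSD4 (0.56 ± 0.11, adjusted p = 0.0198) rose with MYC, and the helicase DHX30 fell with tipifarnib (-0.42 ± 0.09, adjusted p = 0.0169), 1 of the 2 of 24 that did. Genes for transcription and replication of mitochondrial DNA rose with MYC in 5 of 9 cases, including TFB2M (0.72 ± 0.11, adjusted p = 0.0111), POLG2 (0.59 ± 0.10, adjusted p = 0.0141) and TWNK (0.81 ± 0.17, adjusted p = 0.025). TFAM, the packaging and transcription factor of mitochondrial DNA, was the 1 of 9 that fell with tipifarnib (-0.61 ± 0.11, adjusted p = 0.00695).

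Nuclear regulators of mitochondrial genes rose with MYC in 3 of 9 cases, the coactivators PPARGC1B (1.31 ± 0.22, adjusted p = 0.0131) and PPRC1 (0.52 ± 0.13, adjusted p = 0.0436) and the nuclear receptor ESRRA (0.67 ± 0.12, adjusted p = 0.0158). With tipifarnib 0 of 9 passed by edgeR, 5 having an unadjusted p under 0.05. Mitochondrial chaperones and proteases rose with MYC in 4 of 10 cases, among them TRAP1 (0.87 ± 0.10, adjusted p = 0.00745), HSPD1 (0.61 ± 0.12, adjusted p = 0.0211) and CLPX (0.38 ± 0.08, adjusted p = 0.0242). With tipifarnib TRAP1 (-0.38 ± 0.10, adjusted p = 0.0365) and AFG3L2 (-0.36 ± 0.10, adjusted p = 0.0482) fell, 2 of 10. RNAs encoded by mitochondrial DNA, among them the ribosomal RNAs that these proteins bind, passed in 0 of 15 cases with MYC (0 with an unadjusted p under 0.05, median -0.08) and in 0 of 15 with tipifarnib (3 with an unadjusted p under 0.05, median -0.18). Library preparation selected polyadenylated RNA, and the part of that selection in their levels was not tested. No gene of these 8 lists fell with MYC or rose with tipifarnib in the edgeR fit over all lines. Of all genes 2.84% and 4.66% did so. In SKOV3 the chaperones and proteases summed to 3036 and 2180 CPM with tipifarnib (MYC, control), against 2642 and 1704 CPM with DMSO. They were lower with tipifarnib in A549 (3073 and 2048 against 4167 and 2640 CPM) and MDA-MB-231 (3262 and 2655 against 4062 and 3240 CPM). Besides C1QBP, the tipifarnib effect differed between lines for HSPA9 (adjusted p = 0.0186, edgeR), TACO1, MRM2, LONP1 and MPV17L2.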

How the data were processed

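Polyadenylated RNA of 12 libraries was sequenced. The authors deposited unnormalized read counts, with 57820 gene rows and 5 summary rows; per the submitters' processing notes the tools were TopHat2, HTSeq and DESeq2 with hg19, and versions, annotation and strand setting are not given in the sources used here. The summary rows (17.5% to 19.9% of all counts) were left out. Identifiers were matched without version, 51996 of them to a symbol.

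Counts were filtered with filterByExpr over the 4 groups, scaled by TMM, and tested with the edgeR 4.0.16 quasi-likelihood test (R 4.3.3), with Benjamini-Hochberg adjustment over all genes tested. Comparisons over lines and between lines' levels used line and group (6 residual degrees of freedom, common biological coefficient of variation 0.2446). Comparisons within a line used a MYC effect and a tipifarnib effect per line (3 residual degrees of freedom, 0.1354). In all 14 comparisons were made. Lines pair the libraries: after centring on groups, libraries of 1 line correlated across genes with r from 0.823 to 0.908, and libraries of different lines from -0.549 to -0.292.

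Genes were named by rule: up to 12 per direction with the smallest p among those that passed with all pairs alike over lines, up to 3 per direction elsewhere (4 for tests without direction), the 4 smallest p where fewer than 4 passed, the MRPS18 paralogs, holders of CACGTG, and up to 3 per list. MRPL10, MRPL11, MRPL16, MRPL50, MRPS2, MRPS12, MRPS31, MRPS34, MRPL9, MRPS24, MRPL53, MRPL33 and MRPL40 were in part singled out after their values were seen. The genes, lists and tests were chosen with earlier results of these data known. Pair ratios used an offset of 0.05 CPM. Scripts were tested on simulated counts with 200 changed genes. Unchanged genes made up 4.35% of the calls for MYC over both treatments and 8.38% for tipifarnib over both vectors. They made up 10.95% for MYC within SKOV3, and 12.05% and 17.61% for differences of the MYC and tipifarnib effects between lines. An adjusted p just under 0.05 is to be read beside these shares. For the fits over all lines, the simulated pairs of a line shared no response of that line's own. The shares for those fits therefore cannot show how many calls are false where the pairs do share one. Alternatives were DESeq2 1.42.0, its size factors, limma-voom (limma 3.58.1), no filter, no line block, counts summed per line, and each line left out. List symbols MRM1 and RCC1L had no match. Overlapping exons come from GENCODE 29, whose build differs, so no coordinate of it is given. Tables and figures were made with Python 3.11.15, pandas 2.3.3 and matplotlib 3.10.9.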

Additional observations from a re-analysis of the deposited data

Results flagged for a closer look

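The tipifarnib effect of 3 of 75 genes (4%), against 7.69% of all genes, differed between lines in edgeR's quasi-likelihood test, adjusted by Benjamini-Hochberg, with SKOV3 on the other side of 0 from A549 and MDA-MB-231. MRPL41 (adjusted p = 0.0421) had 106.6 and 84.1 CPM with tipifarnib in MYC and control cells of SKOV3 against 57.9 and 62.7 CPM with DMSO, while in A549 it had 159 and 109 CPM against 221 and 134 CPM and in MDA-MB-231 89.3 and 110.7 CPM against 148 and 112 CPM. MRPS12 (adjusted p = 0.0467) had 57.4 and 38.4 CPM with tipifarnib in SKOV3 against 48.3 and 31.1 CPM, 152 and 100.3 CPM in A549 against 193 and 129 CPM, and 50.1 and 46.7 CPM in MDA-MB-231 against 87.3 and 58.0 CPM. MRPL17 (adjusted p = 0.0497) had 79.2 and 76.1 CPM with tipifarnib in SKOV3 against 62.5 and 66.2 CPM, 100.1 and 74.0 CPM in A549 against 109 and 101 CPM, and 94.7 and 91.6 CPM in MDA-MB-231 against 136 and 123 CPM. In each of the 3 genes and 3 lines the sign was the same in MYC and control cells. MRPL41 was close to 0 in MDA-MB-231 control cells, with a log2 ratio of -0.015. In simulated counts 17.6% of the calls of this test were on unchanged genes. Over the alternatives the adjusted p ran from 4.5e-07 to 0.0465 for MRPL41, from 0.00138 to 0.0479 for MRPS12 and from 0.00579 to 0.0514 for MRPL17.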

How the results depend on the processing

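Counts of genes called out of 75 depended most on the line block and on having 3 lines. They describe the fits, and the share of all genes called under each alternative is given only in part above. For MYC over both treatments 21 became 0 with no replicate block and 0 with counts summed per line, and ranged from 0 to 0 with 1 line left out, while 16 to 28 passed under the other alternatives. For tipifarnib over both vectors 9 became 14 with DESeq2, 2 without the low count filter, 0 with no replicate block, 0 with counts summed per line, and 0 to 3 with 1 line left out. Within lines, MYC in MDA-MB-231 gave 7 instead of 2 with DESeq2 and 7 without the filter. Tipifarnib in A549 gave 1 instead of 3 with DESeq2 size factors, 5 with DESeq2 and 5 with limma-voom. Differences of the tipifarnib effect between lines gave 10 instead of 3 with DESeq2 and 11 without the filter. Directions held: 67 to 73 of 75 values were positive for MYC under every alternative run. Of 485 alternative values for the genes named in a comparison, 362 kept their side of the threshold, 116 lost it (102 of them over all libraries with a line left out, no block or summed counts), 7 gained it and 0 turned round. The main fit counts the 2 pairs of a line as separate, although they share that line's own response, and the summed fit does not. Leaving out a line or summing also leaves fewer samples, and dropping the block leaves more spread. The part of each in the lost calls was not tested.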

Other observations

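Among all other genes tested, those whose level over the 12 libraries, centred on each line, was most like the mean of the 75 mitochondrial ribosomal protein genes were ISG20L2 (Pearson r = 0.986), an exonuclease of ribosomal RNA processing, C1QBP (0.983), TFB2M (0.977), the prohibitin PHB1 (0.976) and CDC123 (0.975), an assembly factor of a cytosolic initiation factor. The libraries share line, vector and treatment, and the values are a description. Few reads limit the lowest tested genes: over all 12 libraries MRPS24 had 146 reads, MRPL38 had 367 and MRPL53 had 470. As for the other 2, same-strand exons of other genes overlap MRPL38, by 37.5%, and their part in its low count was not tested.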
